A study of Mus musculus with 4 samples.

Results

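The genes described here encode 14 enzymes or enzyme subunits listed under the tricarboxylic acid (TCA) cycle and 17 enzymes or carriers of mitochondrial fatty acid oxidation. Of the 14, the products of Idh1 and Mdh1 are cytosolic counterparts, outside the mitochondrial cycle itself. The 31 genes were taken from the deposited tables by gene symbol, and each stood on 1 of the 23700 rows. RNA was sequenced from helper T cells of the spleen of C57BL/6 mice 43 weeks old, in 2 libraries labelled KO (KO 1 and KO 2), for RIPK1 deleted only in T cells, and 2 libraries labelled wild type (WT 1 and WT 2). The titles of all 4 libraries also carry CD4 and Ctrl, and Ctrl is not explained in the labels. RIPK1 is a protein kinase that acts in signalling below the TNF receptor. The sources used here do not give what drives Cre, which exons were removed, or whether 1 mouse, several or a pool stood behind each library. The p-values therefore reflect only library-to-library spread, part or all of which may be technical. Each value is an FPKM, a number of fragments divided by the length of the transcript and by the mapped fragments of the library.

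The TCA cycle oxidises acetyl-CoA in the mitochondrial matrix and passes electrons to the respiratory chain. It also supplies citrate and other intermediates for biosynthesis. Fatty acids enter mitochondria as carnitine esters and are shortened by repeated rounds of dehydrogenation, hydration, a second dehydrogenation and thiolysis, which deliver acetyl-CoA to the cycle. Activated effector T cells rely largely on glycolysis and glutamine, while regulatory and memory T cells have been described as drawing more on oxidative metabolism.

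Several facts of the whole series touch each value below. Ripk1 stood at 10.4 and 9.54 FPKM in the libraries labelled KO, against 5.61 and 5.60 FPKM in the WT libraries (limma adjusted p = 0.0262; 0.192 after trimmed-mean scaling, 0.257 after quantile normalization, and 0.109, 0.0991 and 0.0552 without KO 1, WT 1 or WT 2), so the value for the whole gene goes against the label, and each direction given here is that of the libraries labelled KO. All 7 T cell markers were present, and 3 of the 7 rose (limma, adjusted p under 0.05), or 42.9%, against 25.6% of all tested rows. Among them was Cd4, at 211 and 185 FPKM in the libraries labelled KO, against 86.3 and 87.3 FPKM in the WT libraries. The log2 change of Cd4 was 1.18 (limma adjusted p = 0.0173, and 0.048 after trimmed-mean scaling). On leaving out 1 library that change ran from 1.09 to 1.27, and the call was lost without KO 1, KO 2 or WT 1. Cd3d went the other way, at 175.5 and 169.2 FPKM in the libraries labelled KO, against 185.1 and 238.4 FPKM in the WT libraries (limma adjusted p = 0.395; 0.0447 after trimmed-mean scaling), and Cd3g overlapped. Sequencing depth could be estimated from how low values step, at about 17600000 and 19200000 fragments in the libraries labelled KO and 21400000 and 22100000 in the WT libraries. The median of all 11074 tested rows was 0.38 higher (log2 scale) in the libraries labelled KO as deposited, and 0.01 higher after trimmed-mean scaling, which divides each library by a factor taken from its middle genes. The test on all rows (limma, adjusted p under 0.05) called 2832 up and 111 down as deposited, and 501 up and 415 down once the libraries were scaled by their trimmed means. Values are as deposited unless trimmed-mean scaling is named. Of the 31 changes described below, 14 were above 0 as deposited and below 0 after that scaling. The groups hold mixtures of cells, in which more cells of a type and more RNA per cell cannot be told apart.

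All 31 genes passed the filter on low values. Estimated fragments per gene and library ran from 27.3 to 2340 with a median of 668. Most of the genes were expressed above the typical gene, with 28 and 28 of 31 above the median tested row in KO 1 and KO 2, and 27 and 25 in WT 1 and WT 2. As deposited, 6 of the 31 rose and 0 fell (limma, adjusted p under 0.05), and 11 (35.5%) were higher and 0 lower at an unadjusted p under 0.05, against 39.5% and 2.84% of all tested rows at that p. The 6 were Cpt1a, Hadha, Cs, Dlst, Hadh and Etfdh. They are 19.4% of the members, against 25.6% of all tested rows called higher and 1.0% called lower, so the genes as a set were not called more often than the background. The median log2 change of the 31 genes was 0.42 (0.04 above the median gene), with 17 above and 14 below the median gene, and 27 of 31 changes were above 0, against 76.7% of all tested rows. After trimmed-mean scaling 0 of the 31 passed (limma, smallest adjusted p = 0.0517 for Cpt1a), against 4.52% and 3.75% of all tested rows called higher and lower. At an unadjusted p under 0.05, 3 (9.68%) were then higher and 5 (16.1%) lower, against 17.8% and 17.3% of all tested rows. After quantile normalization 0 passed as well (limma, smallest adjusted p = 0.0676), against 1.62% and 0.695% of all tested rows called higher and lower. At an unadjusted p under 0.05, 4 (12.9%) were higher and 5 (16.1%) lower on that scale, against 16.2% and 17.6% of all tested rows. With the libraries scaled to the same summed FPKM, an alternative chosen after seeing the data, 16 rose and 0 fell, against 42.6% and 1.34% of all tested rows. Without WT 1, 0 of 31 passed (limma, 8 higher at an unadjusted p under 0.05, or 25.8%, against 28.1% of all rows tested), and without KO 1 only Cpt1a and Hadha did. With 2 libraries in each group, the smallest two-sided exact permutation p for a single gene is 0.333.

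**Figure D1:**
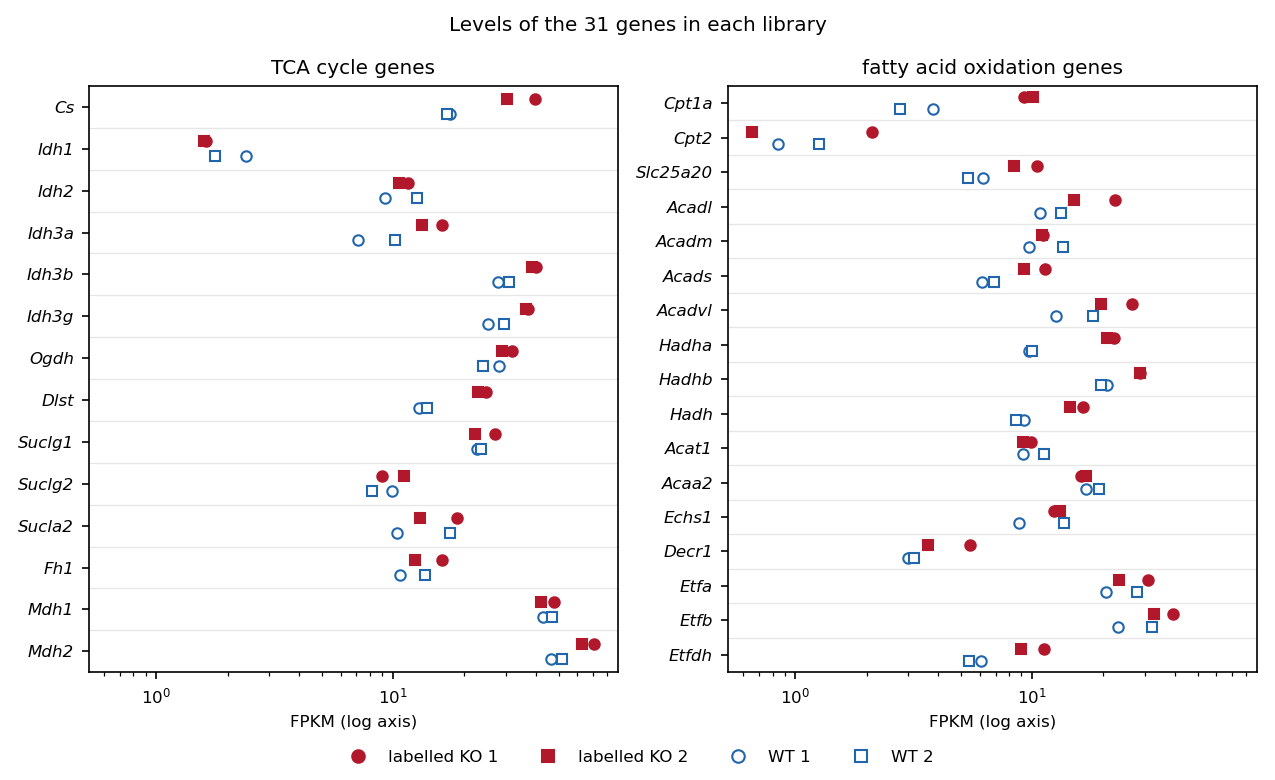
Level of each gene in each library in FPKM on a log axis, with TCA cycle genes on the left and fatty acid oxidation genes on the right. Filled red symbols are the libraries labelled KO and open blue symbols the WT libraries. The red symbols lie apart from and above the blue ones in 18 of 31 genes, as for Cpt1a, Hadha and Cs, and below them in Idh1 and Acaa2.

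As deposited, both libraries labelled KO lay above both WT libraries in 18 of the 31 genes (58.1%), near the 58.5% of all tested rows. They lay below both in 2 genes, Idh1 and Acaa2, against 12.1% of all tested rows. After trimmed-mean scaling, 8 genes lay wholly above and 7 wholly below, against 33.5% and 31.8% of all tested rows. The summed level of the 31 genes was 677 and 592 FPKM in the libraries labelled KO, against 450 and 511 FPKM in the WT libraries, without overlap. After trimmed-mean scaling the sums were 566 and 517 in the libraries labelled KO and 563 and 559 in the WT libraries, and the groups overlapped.

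Entry into the TCA cycle is catalysed by citrate synthase, which joins acetyl-CoA to oxaloacetate. Its gene Cs was at 39.8 and 30.3 FPKM in the libraries labelled KO, against 17.4 and 17.0 FPKM in the WT libraries. The WT values lay close together, and KO 1 was the highest. Cs rose 2.04-fold (log2 change 0.97, SE 0.21; limma adjusted p = 0.0229; 0.54 and adjusted p = 0.0979 after trimmed-mean scaling). Dlst encodes the succinyltransferase core of the 2-oxoglutarate dehydrogenase complex, which makes succinyl-CoA. It was at 24.8 and 22.9 FPKM in the libraries labelled KO, against 12.9 and 13.9 FPKM in the WT libraries. Dlst rose 1.78-fold (log2 change 0.79, SE 0.19; limma adjusted p = 0.0266; 0.36 and adjusted p = 0.145 after trimmed-mean scaling). Ogdh, the decarboxylating subunit of the same complex, was at 31.7 and 28.7 FPKM in the libraries labelled KO and 27.9 and 23.9 FPKM in the WT libraries. Its groups did not overlap, but the change of 0.22 ± 0.20 did not pass (limma adjusted p = 0.432), and it was -0.22 after trimmed-mean scaling. Without WT 1 neither Cs nor Dlst passed (both limma adjusted p = 0.0987), and without KO 1 they stood at adjusted p = 0.17 and 0.169 (limma). Dlst also missed without KO 2 (0.0884, limma), and Cs without WT 2 (0.0544, limma).

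The NAD-dependent isocitrate dehydrogenase of the matrix is built from the products of Idh3a, Idh3b and Idh3g. In each of these 3 genes both libraries labelled KO lay above both WT libraries, as in 58.5% of all tested rows, and 0 of 3 passed (limma, 1 at an unadjusted p under 0.05). Idh3a, which encodes the catalytic subunit, was at 16.1 and 13.2 FPKM in the libraries labelled KO, against 7.13 and 10.1 FPKM in the WT libraries (log2 change 0.71 ± 0.23, limma adjusted p = 0.057). Idh3b and Idh3g, for the regulatory subunits, were closer to the median gene, at log2 changes of 0.42 ± 0.20 and 0.43 ± 0.20 (limma adjusted p = 0.153 and 0.149). They stood at -0.024 and -0.01 after trimmed-mean scaling, when Idh3a was at 0.30. The ratio of Idh3g to Idh3b was nearly the same in each library, at 0.927 and 0.947 in the libraries labelled KO and 0.904 and 0.952 in the WT libraries. The ratio of Idh3a to Idh3b was 0.402 and 0.342 in the libraries labelled KO, against 0.257 and 0.329 in the WT libraries, so KO 2 and WT 2 almost touched.

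The NADP-dependent isocitrate dehydrogenases make NADPH. Idh1, the cytosolic enzyme, had the lowest change among the TCA cycle genes. It was at 1.62 and 1.59 FPKM in the libraries labelled KO, against 2.40 and 1.77 FPKM in the WT libraries, a log2 change of -0.24 ± 0.19 (limma adjusted p = 0.379). Idh2, the mitochondrial enzyme, was at 11.5 and 10.6 FPKM in the libraries labelled KO, inside the WT range of 9.26 to 12.6 FPKM (log2 change 0.03; -0.39 after trimmed-mean scaling). The ratio of Idh2 to Idh1 overlapped, at 7.11 and 6.64 in the libraries labelled KO and 3.87 and 7.10 in the WT libraries.

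Succinyl-CoA ligase pairs the product of Suclg1 with either that of Sucla2, which makes ATP, or that of Suclg2, which makes GTP. All 3 genes overlapped between the groups and lay below the median gene, with log2 changes of 0.08 to 0.19 as deposited and -0.36 to -0.23 after trimmed-mean scaling. Of these 3 genes 0 passed (limma, 0 at an unadjusted p under 0.05). Suclg2 was at 9.01 and 11.2 FPKM in the libraries labelled KO, against 9.89 and 8.13 FPKM in the WT libraries. Sucla2 was at 18.6 and 13.0 FPKM in the libraries labelled KO, against 10.4 and 17.4 FPKM in the WT libraries. The ratio of Suclg2 to Sucla2 thus varied as much within a group as between groups, at 0.485 and 0.856 in the libraries labelled KO and 0.952 and 0.466 in the WT libraries. Fh1, for fumarase, overlapped too, at 16.1 and 12.3 FPKM in the libraries labelled KO and 10.7 and 13.6 FPKM in the WT libraries (log2 change 0.21; -0.21 after trimmed-mean scaling).

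The last step of the cycle, from malate to oxaloacetate, is catalysed by the mitochondrial malate dehydrogenase, and its cytosolic counterpart serves the malate-aspartate shuttle. Mdh2, for the mitochondrial enzyme, had the highest level of the 31 genes, at 70.4 and 63.1 FPKM in the libraries labelled KO, against 46.4 and 51.7 FPKM in the WT libraries. Mdh1, for the cytosolic enzyme, was at 48.0 and 42.0 FPKM in the libraries labelled KO, against 43.1 and 46.7 FPKM in the WT libraries. The groups were apart for Mdh2 and overlapped for Mdh1, while neither change passed (limma adjusted p = 0.157 and 0.997; log2 changes of -0.0079 and -0.44 after trimmed-mean scaling). Within a library, the ratio of Mdh2 to Mdh1 was 1.47 and 1.50 in the libraries labelled KO, against 1.08 and 1.11 in the WT libraries. Such a ratio does not depend on how the libraries are scaled, and it shows an unequal difference of the 2 genes, not which of them differed.

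Taken over the TCA cycle list, 2 of 14 genes rose (14.3%, against 25.6% of all tested rows), and 8 of 14 lay below the median gene. The median log2 change was 0.22, or -0.16 relative to the median gene. These figures count the cytosolic Idh1 and Mdh1, which lay at -0.61 and -0.38 relative to the median gene. The summed level of the 14 genes was 392 and 346 FPKM in the libraries labelled KO, against 273 and 300.5 FPKM in the WT libraries. After trimmed-mean scaling both libraries labelled KO lay just below both WT libraries, at 328 and 302 in the libraries labelled KO and 342 and 329 in the WT libraries.

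The genes of fatty acid oxidation begin with the carnitine shuttle. Cpt1a encodes carnitine palmitoyltransferase 1A of the outer mitochondrial membrane, the step that malonyl-CoA inhibits and that limits entry of long-chain fatty acids. It was at 9.23 and 10.04 FPKM in the libraries labelled KO, against 3.82 and 2.76 FPKM in the WT libraries. The pairs of values stood far apart, and KO 2 was the highest. Cpt1a rose 2.93-fold (log2 change 1.32, SE 0.19; limma adjusted p = 0.0131), the largest of the 31 genes and larger than in 95.9% of all tested rows. After trimmed-mean scaling its change was 0.94 (limma adjusted p = 0.0517), and without WT 1 it had an adjusted p of 0.0835 (limma). Slc25a20, the carnitine-acylcarnitine translocase of the inner membrane, was at 10.5 and 8.36 FPKM in the libraries labelled KO, against 6.22 and 5.34 FPKM in the WT libraries. Its groups were apart, and its change of 0.62 ± 0.19 did not pass (limma adjusted p = 0.0555; 0.22 and adjusted p = 0.462 after trimmed-mean scaling). Cpt2, which turns the carnitine ester back into acyl-CoA, was low and uneven, at 2.11 and 0.654 FPKM in the libraries labelled KO, against 0.846 and 1.26 FPKM in the WT libraries. No difference of Cpt2 was detectable at this depth (log2 change 0.15, 95% interval -0.61 to 0.91, limma; -0.086 after trimmed-mean scaling). The stretch of the Cpt1a promoter nearest the start of transcription is shown because this gene had the largest change, with capitals for 2 GC boxes (GGGCGGGG, here on the opposite strand). Such a box stood in 17.6% of the 32851 promoter windows of 300 bases given by RefSeq (GRCm38.p6, both strands searched). It stood in 16 of the 33 windows of members, from 14 of the 27 members that have any window. The 32851 windows were not limited to tested genes, so the 2 shares are not a matched comparison.
Cpt1a, plus strand, chr19:3323201-3323300, the 100 bases before the start: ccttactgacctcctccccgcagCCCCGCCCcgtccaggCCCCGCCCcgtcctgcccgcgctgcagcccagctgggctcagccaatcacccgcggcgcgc

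The acyl-CoA dehydrogenases carry out the first oxidation, each on its own range of chain lengths. Acadvl, Acadl and Acads, for very long, long and short chains, lay higher in both libraries labelled KO than in both WT libraries, as 58.5% of all tested rows did, and Acadm, for medium chains, overlapped. After trimmed-mean scaling the log2 changes of Acadvl, Acadl and Acads were 0.13, 0.15 and 0.18, and that of Acadm was -0.46. Of the 4 genes 0 passed (limma, 2 at an unadjusted p under 0.05). Acads was at 11.4 and 9.26 FPKM in the libraries labelled KO, against 6.16 and 6.87 FPKM in the WT libraries (log2 change 0.59 ± 0.19, limma adjusted p = 0.0593). Acadl was at 22.3 and 15.1 FPKM in the libraries labelled KO, against 10.8 and 13.2 FPKM in the WT libraries. Acadvl was at 26.3 and 19.5 FPKM in the libraries labelled KO, against 12.6 and 17.99 FPKM in the WT libraries, so that KO 2 and WT 2 were near each other. Acadm was at 11.2 and 10.99 FPKM in the libraries labelled KO, inside the WT range of 9.67 to 13.5 FPKM. The ratio of Acads to Acadm was 1.02 and 0.843 in the libraries labelled KO, against 0.637 and 0.510 in the WT libraries.

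The mitochondrial trifunctional protein carries out the remaining 3 reactions on long chains. Its alpha subunit, with the hydratase and the hydroxyacyl-CoA dehydrogenase, comes from Hadha, and its beta subunit, a thiolase, from Hadhb. Hadha was at 22.1 and 20.7 FPKM in the libraries labelled KO, against 9.71 and 10.02 FPKM in the WT libraries. The values within each group nearly coincided. Hadha rose 2.17-fold (log2 change 1.04, SE 0.18; limma adjusted p = 0.0151; 0.62 and adjusted p = 0.0551 after trimmed-mean scaling; adjusted p = 0.0849 without WT 1). Hadhb was at 28.5 and 28.6 FPKM in the libraries labelled KO, against 20.7 and 19.5 FPKM in the WT libraries. Its groups were apart, and its change of 0.49 ± 0.19 did not pass (limma adjusted p = 0.0967; 0.05 and adjusted p = 0.852 after trimmed-mean scaling). Within a library, the ratio of Hadha to Hadhb was 0.773 and 0.726 in the libraries labelled KO, against 0.468 and 0.515 in the WT libraries. The 2 genes lie head to head on chromosome 5, with 272 bases between their annotated starts (RefSeq, GRCm38.p6), and 250 of these bases are shown because this single stretch lies before both.
Upstream of Hadha (minus strand, chr5:30154981-30155230) and of Hadhb (opposite strand), read toward Hadha: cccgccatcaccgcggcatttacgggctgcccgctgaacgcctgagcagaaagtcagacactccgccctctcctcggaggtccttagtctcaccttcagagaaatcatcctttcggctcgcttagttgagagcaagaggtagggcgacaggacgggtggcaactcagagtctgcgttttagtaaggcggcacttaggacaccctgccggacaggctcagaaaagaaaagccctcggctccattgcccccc

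Shorter chains are handled by separate enzymes of the matrix. Hadh, the hydroxyacyl-CoA dehydrogenase for medium and short chains, was at 16.4 and 14.4 FPKM in the libraries labelled KO, against 9.21 and 8.50 FPKM in the WT libraries. Hadh rose 1.74-fold (log2 change 0.73, SE 0.18; limma adjusted p = 0.0307; 0.32 and adjusted p = 0.241 after trimmed-mean scaling). Leaving out WT 1, WT 2, KO 1 or KO 2 ended this call (limma adjusted p = 0.0987, 0.0642, 0.18 and 0.0674). Echs1, the short-chain hydratase, was at 12.4 and 13.1 FPKM in the libraries labelled KO and at 8.82 and 13.6 FPKM in the WT libraries, which spanned both (log2 change 0.20; -0.22 after trimmed-mean scaling). The matrix thiolases stayed near or below the WT values. Acaa2, for medium chains, was at 16.0 and 16.9 FPKM in the libraries labelled KO, against 16.9 and 19.1 FPKM in the WT libraries, with KO 2 and WT 1 nearly equal. Acat1, which also acts in ketone body and isoleucine breakdown, was at 9.93 and 9.15 FPKM in the libraries labelled KO, against 9.11 and 11.2 FPKM in the WT libraries. Their log2 changes of -0.12 ± 0.19 and -0.07 ± 0.19 did not pass (limma adjusted p = 0.642 and 0.783). After trimmed-mean scaling these changes were -0.55 and -0.49 and did not pass either (limma adjusted p = 0.0646 and 0.0822). The ratio of Hadha to Acaa2 was 1.38 and 1.23 in the libraries labelled KO, against 0.573 and 0.525 in the WT libraries, so that the order of the 2 genes differed between the groups. Decr1, the reductase for unsaturated chains, was low, at 5.47 and 3.62 FPKM in the libraries labelled KO and 2.97 and 3.16 FPKM in the WT libraries (limma adjusted p = 0.169; log2 change 0.43, or 0.071 after trimmed-mean scaling).

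Electrons from the acyl-CoA dehydrogenases pass to the electron transfer flavoprotein, from Etfa and Etfb, and on to ubiquinone through the oxidoreductase encoded by Etfdh. Etfdh was at 11.2 and 8.98 FPKM in the libraries labelled KO, against 6.07 and 5.40 FPKM in the WT libraries. The groups were apart, with KO 1 the highest. Etfdh rose 1.76-fold (log2 change 0.71, SE 0.19; limma adjusted p = 0.0359; 0.31 and adjusted p = 0.283 after trimmed-mean scaling). The call was lost without WT 1, WT 2 or KO 1 (limma adjusted p = 0.11, 0.0898 and 0.192). Etfa was at 30.8 and 23.3 FPKM in the libraries labelled KO and 20.5 and 27.7 FPKM in the WT libraries, with overlap. Etfb was at 39.3 and 32.6 FPKM in the libraries labelled KO, against 23.0 and 32.0 FPKM in the WT libraries, where KO 2 and WT 2 nearly met. The ratio of Etfa to Etfb was 0.786 and 0.714 in the libraries labelled KO, against 0.892 and 0.866 in the WT libraries. The log2 changes of Etfa and Etfb were 0.16 and 0.39 (limma adjusted p = 0.629 and 0.249), with Etfa 0.22 below the median gene, Etfb 0.0087 above it and Etfdh 0.33 above it. After trimmed-mean scaling those of Etfa and Etfb were -0.27 and -0.051. Stretches of the promoter windows of Etfdh and Dlst around a motif, 70 and 78 bases long, are shown because they are the called genes whose windows hold, in capitals, a motif of a factor of mitochondrial genes: the NRF1 motif in Etfdh and CCGGAAGTG (opposite strand) for GABP in Dlst.
Etfdh, minus strand, chr3:79628856-79628925: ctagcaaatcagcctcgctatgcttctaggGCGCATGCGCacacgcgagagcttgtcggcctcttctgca
Dlst, plus strand, chr12:85110763-85110840: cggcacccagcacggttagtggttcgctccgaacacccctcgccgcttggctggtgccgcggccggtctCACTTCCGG
With both strands searched, the NRF1 letters stood in 0.971% of all promoter windows and in 1 of the 33 windows of members. The GABP letters stood in 2.03% of all windows and in 2 of those 33, of Dlst and Cpt2. An estrogen-related receptor motif (TCAAGGTCA) was in 0.423% of windows and in 0 members, and a PPAR direct repeat (AGGTCA, any 1 base, AGGTCA) in 0.0396% and in 0 members. These are matches of letters in 27 of the 31 genes and say nothing about binding.

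**Figure D2:**
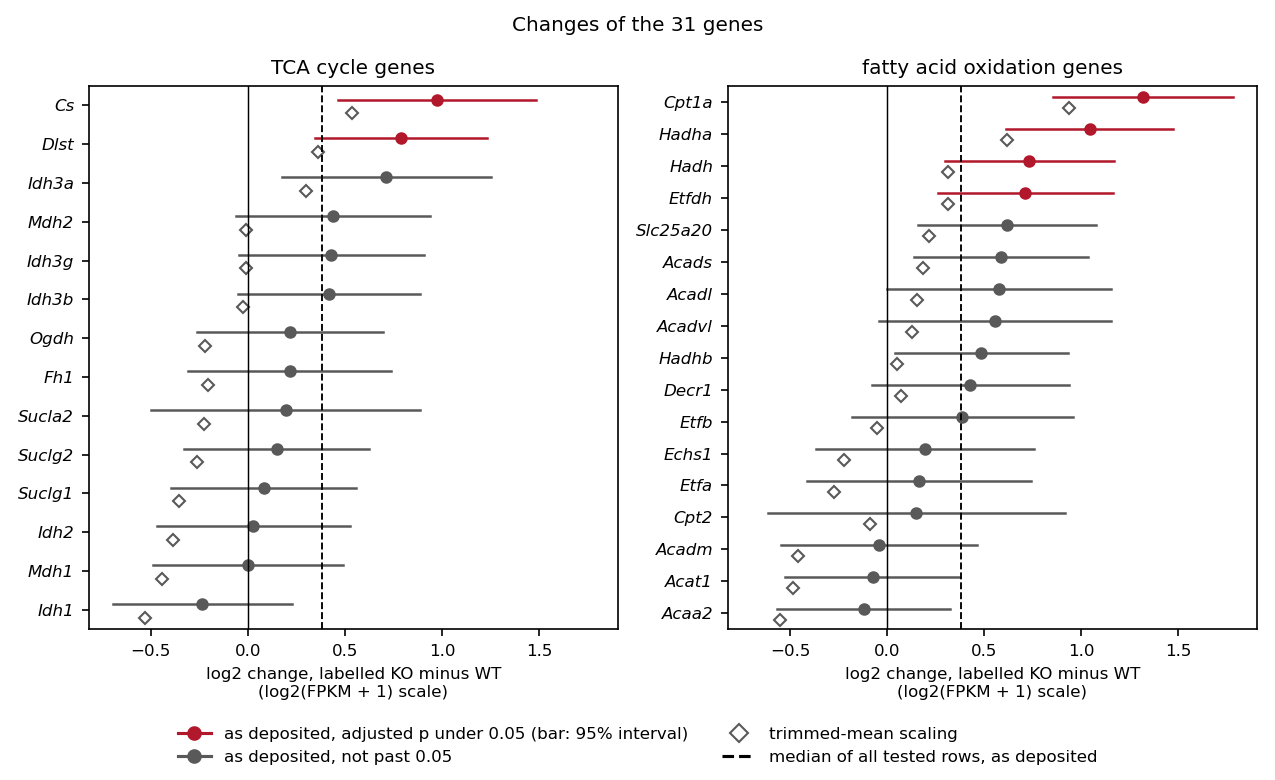
Log2 change (labelled KO minus WT, log2(FPKM + 1) scale) of each gene, ordered by size, with 95% intervals from limma for the values as deposited. Red marks the 6 genes with an adjusted p under 0.05, open diamonds the change after trimmed-mean scaling, and the dashed line the median of all tested rows (0.38); Cpt1a and Hadha lie farthest to the right, and Idh1, Acat1 and Acaa2 farthest to the left.

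Of the 17 fatty acid oxidation genes, 4 rose (23.5%, against 25.6% of all tested rows), 11 lay above the median gene, and the median log2 change was 0.49, or 0.11 above the median gene. Their summed level was 285 and 245 FPKM in the libraries labelled KO, against 177 and 211 FPKM in the WT libraries. After trimmed-mean scaling it was 238 and 214 in the libraries labelled KO and 222 and 231 in the WT libraries, with overlap.

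**Figure D3:**
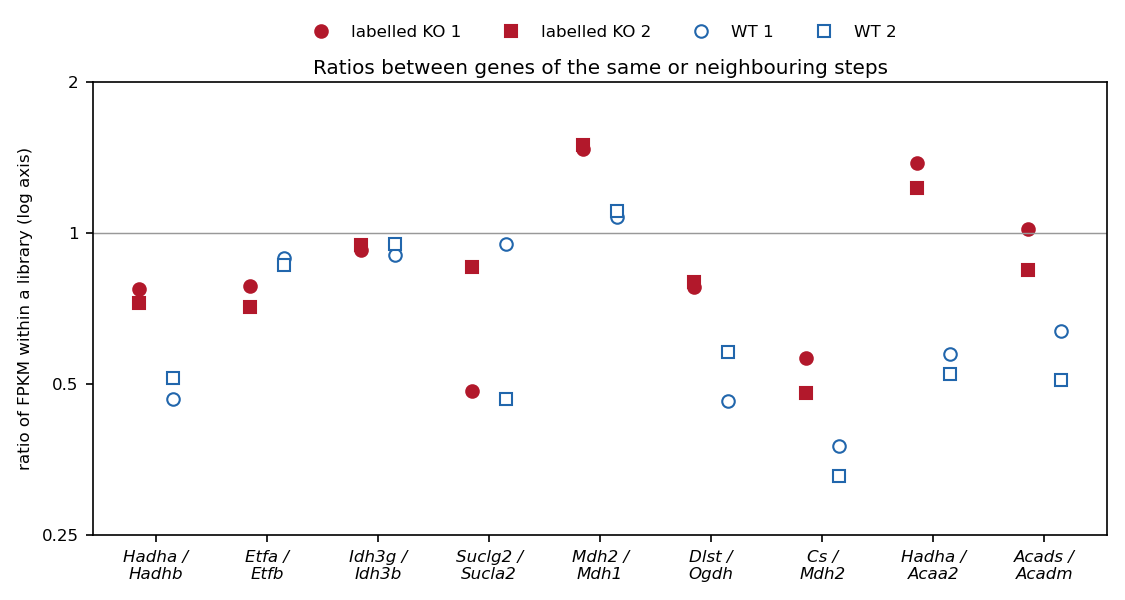
Ratio of the FPKM of 2 genes within each library, on a log axis, for pairs of subunits, paralogs or neighbouring enzymes; filled red symbols are the libraries labelled KO and open blue symbols the WT libraries. The groups lie apart for Hadha to Hadhb, Mdh2 to Mdh1, Dlst to Ogdh, Cs to Mdh2, Hadha to Acaa2, Acads to Acadm and Etfa to Etfb, and overlap for Idh3g to Idh3b and Suclg2 to Sucla2. Further pairs were computed and are not drawn. Among those, Cpt1a to Cpt2 and Idh2 to Idh1 overlapped, and the rest lay apart.

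The ratios were chosen with the members' values known, so no test is given for them. How often ratios of other gene pairs lie apart was not computed, so a gap between the groups is only described. The ratio of Dlst to Ogdh was 0.782 and 0.798 in the libraries labelled KO, against 0.462 and 0.580 in the WT libraries. That of Cs to Mdh2 was 0.565 and 0.480 in the libraries labelled KO, against 0.376 and 0.328 in the WT libraries.

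Other genes of the same pathways, which are no members, are given for comparison. Of 7 further TCA cycle genes 0 passed (limma, 1 at an unadjusted p under 0.05). Sdha, the flavoprotein of succinate dehydrogenase, was at 55.5 and 49.6 FPKM in the libraries labelled KO and 36.0 and 39.9 FPKM in the WT libraries (limma adjusted p = 0.136; log2 change 0.46, or 0.016 after trimmed-mean scaling). Dld, the shared dehydrogenase subunit of the 2-oxo acid complexes, and Sdhd, a membrane anchor of succinate dehydrogenase, lay below the median gene, with log2 changes of 0.33 and 0.23 (limma adjusted p = 0.242 and 0.404; -0.10 and -0.21 after trimmed-mean scaling). Of 12 tested genes of pyruvate entry, 1 rose and 0 fell (8.33%, against 25.6% of all tested rows). This was Pdk2, a kinase that inhibits pyruvate dehydrogenase, at 2.04 and 1.77 FPKM in the libraries labelled KO, against 0.791 and 0.744 FPKM in the WT libraries (limma adjusted p = 0.0354; 0.139 after trimmed-mean scaling and 0.123 without WT 1). Pdk2 passed the filter on low values only through the libraries labelled KO, and of the 11 other tested genes 0 rose.

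Of 8 tested genes of anaplerosis and exchange with the cycle, 3 rose and 0 fell (37.5%, against 25.6% of all tested rows). Got2, the mitochondrial aspartate aminotransferase, was at 24.1 and 19.2 FPKM in the libraries labelled KO, against 7.65 and 9.66 FPKM in the WT libraries. Got2 rose 2.50-fold (limma adjusted p = 0.0151), and it was the 1 gene of these pathway lists that passed after trimmed-mean scaling (limma adjusted p = 0.045), though not after quantile normalization (limma adjusted p = 0.0602). Slc25a1, the carrier that exports citrate from mitochondria, was at 8.30 and 7.61 FPKM in the libraries labelled KO, against 2.21 and 3.73 FPKM in the WT libraries (limma adjusted p = 0.0175; 0.053 after trimmed-mean scaling). Acly, which splits that citrate to cytosolic acetyl-CoA, was at 31.7 and 28.5 FPKM in the libraries labelled KO, against 14.5 and 17.0 FPKM in the WT libraries (limma adjusted p = 0.0232; 0.0871 after trimmed-mean scaling). Acaca, which makes malonyl-CoA, the inhibitor of Cpt1a, was at 2.90 and 2.35 FPKM in the libraries labelled KO, against 1.16 and 0.787 FPKM in the WT libraries (limma adjusted p = 0.0254; 0.11 after trimmed-mean scaling). Genes on the synthetic and on the oxidative side of fatty acid metabolism thus both stood among those called as deposited. None of Got2, Slc25a1, Acly and Acaca passed without WT 1 (limma adjusted p = 0.0902, 0.0876, 0.0966 and 0.0953).

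Of 21 tested genes of the wider fatty acid oxidation and uptake list, 5 rose and 0 fell (23.8%, against 25.6% of all tested rows). Besides Acaca they were the acyl-CoA synthetases Acsl4 and Acsl5, which activate long-chain fatty acids, and the peroxisomal enzymes Hsd17b4 and Acox3. Acsl4 was at 9.25 and 8.44 FPKM in the libraries labelled KO, against 4.25 and 4.82 FPKM in the WT libraries (limma adjusted p = 0.021), and Acsl5 was 1.84-fold higher (limma adjusted p = 0.0444). Hsd17b4 and Acox3 were 1.57-fold and 1.94-fold higher (limma adjusted p = 0.0474 and 0.0368). After trimmed-mean scaling 0 of the 21 passed (limma, smallest adjusted p = 0.0568), and without WT 1 these 4 genes had adjusted p = 0.0987 to 0.163 (limma). Of 9 tested regulators 2 rose and 0 fell (22.2%, against 25.6% of all tested rows). Nrf1, a transcription factor of nuclear genes for mitochondria, was at 13.2 and 13.6 FPKM in the libraries labelled KO, against 7.53 and 9.19 FPKM in the WT libraries (limma adjusted p = 0.0492; 0.362 after trimmed-mean scaling; 0.149 without WT 1). Pparg, a lipid-activated nuclear receptor, was low, at 2.47 and 1.26 FPKM in the libraries labelled KO, against 0.0563 and 0.259 FPKM in the WT libraries (limma adjusted p = 0.0207; 0.0516 after trimmed-mean scaling; 0.124 without WT 1). Pparg passed the filter on low values only through the libraries labelled KO, and of the 8 other tested regulators 1 rose.

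**Figure D4:**
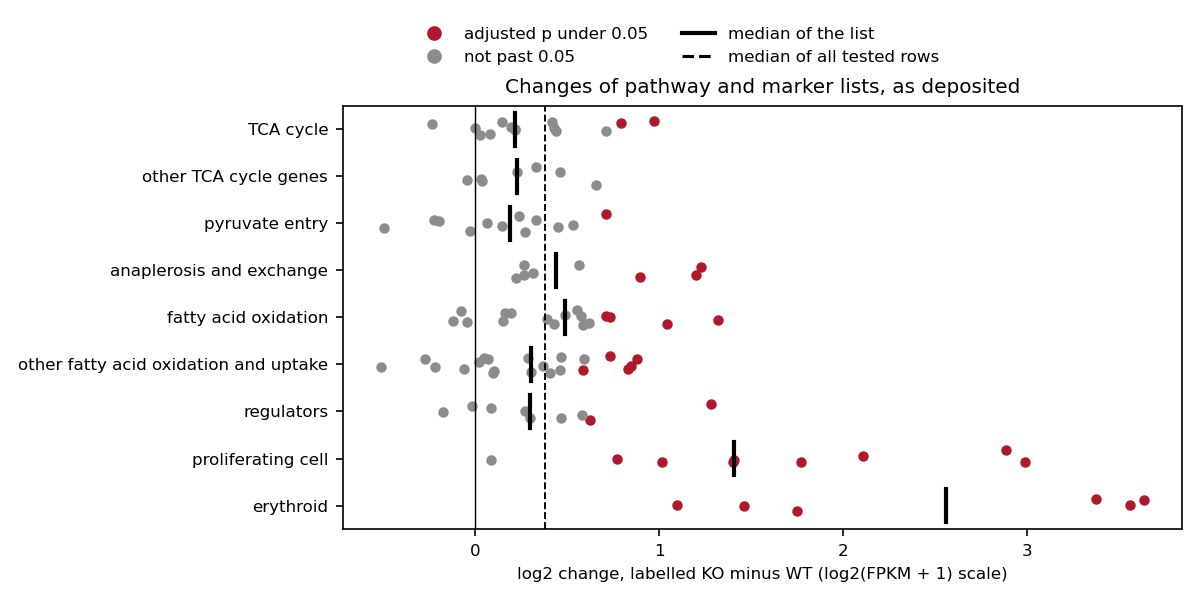
Log2 change (labelled KO minus WT, as deposited) of each tested gene in 7 pathway and regulator lists and 2 marker lists, with red for an adjusted p under 0.05, a bar for the median of the list and a dashed line for the median of all tested rows (0.38). The medians of the metabolic lists lie between 0.19 and 0.49.

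Values of other measures stood beside these changes. Within the libraries labelled KO, 26 of the 31 genes were higher in KO 1 than in KO 2, against 58.0% of all tested rows. Among the WT libraries 22 of 31 were higher in WT 2 than in WT 1, against 68.2% of all tested rows. Of the 9 proliferation markers 3 passed the filter on low values only through the libraries labelled KO, and of the other 6 genes 5 rose. After trimmed-mean scaling 5 of the 9 were called higher. Mki67, one of those 3, was at 21.7 and 9.39 FPKM in the libraries labelled KO, against 0.939 and 0.937 FPKM in the WT libraries. The summed level of the 9 proliferation markers was 231 and 199 FPKM in the libraries labelled KO and 115 and 182 FPKM in the WT libraries. Pcna, which overlapped and was not called, was the largest part of this sum. It was at 122 and 141 FPKM in the libraries labelled KO and 94.6 and 161 FPKM in the WT libraries. Of 6 tested rows of erythroid markers 3 passed the filter only through the libraries labelled KO, and the other 3 rows rose, with 2 of 6 called higher after trimmed-mean scaling. The sums over 10 erythroid rows were 396 and 321 FPKM in the libraries labelled KO, against 6.33 and 99.4 FPKM in the WT libraries, and 4 of the 10 rows were at 0 in WT 1. B cell markers (2 of 3 tested rose, 1 of these tested only through the libraries labelled KO, and 1 of 3 was called higher after trimmed-mean scaling) summed to 14.2 and 13.6 FPKM in the libraries labelled KO and to 6.62 and 6.51 FPKM in the WT libraries, where Pax5 was at 0 in WT 2. Markers of macrophages and monocytes summed to 6.55 and 8.30 FPKM in the libraries labelled KO and 2.24 and 3.96 FPKM in the WT libraries. Of these 1 of 2 tested rose, and 0 of 2 after trimmed-mean scaling, against 25.6% and 4.52% of all tested rows. Dendritic cell markers summed to 11.6 and 12.0 FPKM in the libraries labelled KO and 14.6 and 11.1 FPKM in the WT libraries (0 of 1 tested rose, against 25.6% of all tested rows). Siglech was the largest part of that sum, at 10.9 and 11.1 FPKM in the libraries labelled KO and 13.8 and 10.9 FPKM in the WT libraries. Natural killer cell markers summed to 0.937 and 0.857 FPKM in the libraries labelled KO and 1.80 and 0.981 FPKM in the WT libraries (0 tested). Of the CD8 T cell markers, Cd8a was at 0.249 to 0.764 FPKM and Cd8b1 at 10.35 to 11.3 FPKM over the 4 libraries. Transcript length was compared with the changes as well, with a Spearman rho of 0.371 over the 31 genes and 0.310 over 9923 tested rows that have a length; genes share libraries and are not independent. With the trend on length removed from each library, 10 of the 31 genes rose and 0 fell, against 24.9% and 0.514% of all rows tested in that way. The part of these measures in the changes of the 31 genes was not tested.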

How the data were processed

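RNA libraries were made with the NEBNext Ultra kit from total RNA, per the labels' protocols, and the submitters' processing notes list Bowtie 0.12.2 and build mm8. The authors deposited 1 FPKM value per row and library, per the file headers; its program, annotation and filters were not given in the sources used here. FPKM depends on transcript lengths and on the abundant genes of a library.

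Rows reaching 1 FPKM in 2 or more libraries were tested on log2(FPKM + 1) with limma 3.58.1 (R 4.3.3, intensity trend, two-sided), with Benjamini-Hochberg adjustment over 11074 rows and a threshold of 0.05. Log2 changes of low genes are understated on this scale, and folds are ratios of mean FPKM. The procedure was tested on simulated data with the same spread for every gene and no shift of most genes between groups. That test therefore does not cover the shift seen in the deposited values. Trimmed-mean scaling, written for this work, dropped the outer 30% of log ratios and 5% of mean levels on either side (factors 1.20 and 1.15 in KO 1 and KO 2, 0.799 and 0.914 in WT 1 and WT 2). Depth was estimated from single-transcript genes taking fragments as 200 nt long; 66.7% to 71.4% of low values lay within 5% of whole fragments, so no test for counts was run. Lengths were those of the longest GENCODE M21 transcript of each symbol. Estimated fragments may thus be too high for genes whose main transcript is shorter. All 143 symbols of the lists were found, 3 of them under an older name. Promoter windows (250 bases before to 50 after the start) are RefSeq's for GRCm38.p6, matched by symbol; no coordinates of the deposited build are given. The rule named all 31 members, the called genes of each pathway list (otherwise up to 4 by unadjusted p) and Ripk1. Some genes of these lists are not reported here by name. Members and lists were chosen with earlier results of these data known. Alternatives were other pseudocounts, filters, scalings and forms of the test, each library left out and a block for the replicate number; 2 scalings were added after seeing the data. Python 3.11.15, numpy 2.4.6, pandas 2.3.3 and matplotlib 3.10.9 were used.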

Additional observations from a re-analysis of the deposited data

How the results depend on the processing

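The count of 6 members called was 0 after trimmed-mean scaling, 0 after quantile normalization and 0 with no filter on low values (limma). At an unadjusted p under 0.05 (limma), 3 members were higher and 5 lower after trimmed-mean scaling, against 17.8% and 17.3% of all tested rows. Quantile normalization gave 4 and 5, against 16.2% and 17.6%. With no filter 13 were higher (41.9%) and 0 lower, against 22.9% and 2.69% of 20086 rows, which then included the low ones. The count called was 16 with libraries scaled to the same summed FPKM and 10 with the length trend removed, against 42.6% and 24.9% of rows tested. Both alternatives were chosen after seeing the data. Leaving out 1 library gave 0 to 4, and it was 6 to 9 under the other alternatives. Rows called higher among all tested rows, 2832 as deposited, were 3 with no filter, 501 after trimmed-mean scaling, 179 after quantile normalization and 4719 at the same summed FPKM, and 9 to 2189 without 1 library. Rows called lower, 111 as deposited, were 0 with no filter, 415 after trimmed-mean scaling, 230 with the replicate block and 51 with the length trend removed, and 0 to 123 without 1 library (limma; without WT 1, 3069 higher and 340 lower at an unadjusted p under 0.05). With the replicate block 9 members passed; the numbers are not shown to pair the libraries (r = 0.108 between the deviations of KO 1 and WT 1 over 11074 rows). The 6 called members stayed above the median gene under every alternative run. The number of members above the median gene was 13 to 24, against 17 as deposited. The 24 came with no filter on low values. There 20086 rows were tested, and their median log2 change was 0.10, against 0.38 with the filter.

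Some small changes turned sign. After trimmed-mean scaling the log2 changes were -0.39 for Idh2, -0.024 for Idh3b, -0.01 for Idh3g, -0.22 for Ogdh, -0.36 for Suclg1, -0.26 for Suclg2, -0.23 for Sucla2, -0.21 for Fh1, -0.44 for Mdh1, -0.0079 for Mdh2, -0.086 for Cpt2, -0.22 for Echs1, -0.27 for Etfa, -0.051 for Etfb, -0.10 for Dld and -0.21 for Sdhd. After quantile normalization they were -0.39 for Idh2, -0.11 for Ogdh, -0.27 for Suclg1, -0.30 for Suclg2, -0.21 for Sucla2, -0.20 for Fh1, -0.29 for Mdh1, -0.27 for Cpt2, -0.22 for Echs1, -0.047 for Decr1, -0.16 for Etfa, -0.051 for Dld and -0.11 for Sdhd. At the same summed FPKM they were 0.11 for Acadm, 0.071 for Acat1 and 0.029 for Acaa2, and with the length trend removed 0.074 for Acadm and 0.10 for Acaa2. On leaving out 1 library the change ran from -0.17 to 0.23 for Idh2, -0.051 to 0.21 for Suclg1, -0.15 to 0.54 for Sucla2, -0.094 to 0.10 for Mdh1, -0.044 to 0.37 for Etfa, -0.092 to 0.48 for Echs1, -0.26 to 0.18 for Acadm and -0.21 to 0.059 for Acat1. None of these passed as deposited, and the cause was not tested. With a lone library in a group its spread is assumed to be that of the other group. At 27.3 estimated fragments in KO 2 the value of Cpt2 rests on the fewest fragments among the members.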
